A study of Rattus norvegicus with 24 samples.

Results

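The genes that drive and restrain cell division were examined in BN rat skin explants exposed to allogeneic or syngeneic lymphocytes, a culture model of the skin graft-versus-host reaction (GVHR). The members were the non-control probes whose gene name began like that of a cyclin, a cyclin-dependent kinase or its inhibitor or partner, a Cdc gene, an E2F factor, a replication gene (Mcm, Pcna, Rrm, Tyms), a mitotic kinase or checkpoint gene (Aurk, Bub, Plk), Mki67, a centromere gene (Cenp) or a kinesin (Kif). Genes that the study lists for the major histocompatibility complex and the natural killer complex were left out. The names of the design were used, and 85 of the 8453 probes of the array, for 75 of its 7263 gene names, met this rule. The rule used names and these 2 lists of genomic position, and no measured value.

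From each of 12 male BN rats aged 15 weeks, 1 piece of skin was cultured for 3 days with syngeneic BN lymphocytes and 1 with pre-stimulated allogeneic PVG lymphocytes. Both kinds of lymphocytes had first spent 7 days in mixed culture (MLR), where irradiated spleen cells of BN rats served as stimulators. The explants of both groups were paw skin, and lymphocytes had been added to all of them. Per rat, both RNA samples were compared directly on 2 arrays with exchanged Cy3 and Cy5 dyes, which gave 24 arrays on 3 slides with 4 rats each. Every value below is the log2 ratio of the allogeneic over the syngeneic explant of a rat, averaged over its 2 arrays, and n is 12 rats unless another number is given. RNA was taken from whole explants, so that fewer cells of a type and less RNA per cell cannot be told apart.

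Cells enter division when D type cyclins bind Cdk4 and Cdk6 and release E2F factors, which switch on the replication genes. Cyclins of the E, A and B types with Cdk2 and Cdk1 then drive replication and mitosis. Inhibitors of the Cdkn family block these kinases, and several of the brakes, among them Cdkn1a (p21), are known to be induced by DNA damage. In skin, division takes place mainly in the basal epidermis and hair follicles, whereas activated lymphocytes divide as well.

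The oligonucleotides of 3 members with large or stable differences are shown so that the measured part of each transcript is defined. The Plk3 probe lay on the minus strand at chr5:137449260-137449429 of the rn3 build used in the file headers, a span of 170 bases for 60 bases of probe. The Cdkn2a probe lay on the minus strand at chr5:108916026-108916085 and the Cdkl1 probe on the minus strand at chr6:91805114-91805173. All positions are those given by the array design.
Plk3: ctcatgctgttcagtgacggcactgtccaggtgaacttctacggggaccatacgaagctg
Cdkn2a: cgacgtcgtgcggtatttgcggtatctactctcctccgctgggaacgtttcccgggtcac
Cdkl1: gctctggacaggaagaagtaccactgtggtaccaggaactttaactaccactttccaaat
The other called members are given by position only. The Ccnd1 probe lay at chr1:205511035-205511094 on the minus strand, and the 2 Cdkn1a probes at chr20:7385733-7385792 and chr20:7386823-7386882 on the plus strand, with starts 1090 bases apart. Of the 85 member probes, 48 could be matched to a current RefSeq symbol through their accession. The symbol differed from the file for 2 of them, Cdc2a (now Cdk1) and Cdc2l1 (now Cdk11b).

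Many members have a known promoter signature, and the promoter windows of RefSeq (build GRCr8, 300 bases, from 250 before the gene start) were searched for it on both strands. E2F words were TTTCCCGC, TTTCGCGC, TTTGCCGC and TTTGGCGC, cell cycle homology region (CHR) words were TTTGAA and TTCGAA, and the NF-Y word was CCAAT. A window was found for 61 of the 75 member genes. An E2F word was present in 9 of these 61 windows (14.8%) against 2.3% of all 27457 windows. For the replication and nucleotide supply members, the count was 6 of 8 windows (75%). For the mitotic members it was 1 of 15 windows (6.7%), that of Cdk1. A CHR word was present in 16 of 61 member windows (26.2%) against 19.5% of all, and in 7 of 15 windows (46.7%) of the mitotic members. CCAAT was present in 31 of 61 (50.8%) against 37.7% of all. For the genes called below, 6 of 8 had a window, of which none held an E2F or CHR word and 3 held CCAAT. The upstream 250 bases of one replication gene and of Cdk1, the kinase of mitotic entry, are shown with these words in capitals, and adjoining or overlapping words run together. The Mcm7 stretch is the minus strand of chr12:22163179-22163428 and that of Cdk1 the plus strand of chr20:19265043-19265292, both in GRCr8.
Mcm7: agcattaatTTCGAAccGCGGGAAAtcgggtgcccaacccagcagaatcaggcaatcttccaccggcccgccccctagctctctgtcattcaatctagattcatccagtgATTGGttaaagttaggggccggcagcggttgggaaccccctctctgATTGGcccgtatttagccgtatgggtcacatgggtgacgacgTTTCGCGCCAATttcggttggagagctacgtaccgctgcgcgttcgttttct
Cdk1: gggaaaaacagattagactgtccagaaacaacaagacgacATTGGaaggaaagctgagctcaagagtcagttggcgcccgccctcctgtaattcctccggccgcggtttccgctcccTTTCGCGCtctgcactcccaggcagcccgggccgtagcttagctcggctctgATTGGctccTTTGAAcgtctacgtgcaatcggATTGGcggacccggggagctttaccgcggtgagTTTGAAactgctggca
Both stretches hold words of all 3 kinds, although Cdk1 was the only mitotic member with an E2F word in its window. A match is a description of the sequence and not of a bound factor.

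One rat and 1 array stood apart from the others, the rat in the log ratios themselves. The log ratios of rat 8 had a median correlation of 0.17 with those of the other rats over all probes, whereas the other 11 rats had medians between 0.368 and 0.692. The SD of the member log ratios was 0.809 in rat 8 and 0.121 to 0.296 in the others, and rat 8 had the lowest or the highest value of a member in 62 cases. Its 2 arrays correlated with r = 0.944. Array 1 of rat 10 was far brighter than the other 23 arrays, with a Cy5 median of 25640 against 269.2 to 414.9. The ranks of its probe intensities had a median correlation of 0.201 with the other arrays, which had medians of 0.97 to 0.994. The 2 arrays of rats 2, 3, 6 and 10 had correlations of 0.304, 0.201, 0.264 and 0.133. Results are therefore given with and without rat 8, and the counts also without array 1 of rat 10.

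All signs follow the dye labels, so that a positive value means more signal in the explant labeled as allogeneic. These signs are opposite to those of the study, in its array tables and in its quantitative PCR of some of the same explants. Whether the dye labels of the arrays were exchanged was not settled here, so "allogeneic" below means the explant labeled so, and with the sign turned every "higher" reads "lower". The counts of called probes and the sizes do not depend on the sign. The skin origin could be checked in part only. Of 15 keratinocyte markers, only Tp63, listed as Trp63, was found by name, and its probe was well above background in both groups on all 24 arrays.

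Of the 85 member probes, 9 were called at an adjusted p under 0.05 (10.6%) by limma with Benjamini-Hochberg adjustment over all 8453 probes, of which 17.3% were called. Higher in allogeneic explants were 5 members (all probes 8.78%), and 4 were lower (all probes 8.48%). The called probes belonged to 8 genes. Higher were Ccnd1 (cyclin D1), the CDK-like kinases Cdkl1 and Cdkl2, Cdk10 and E2f8. Lower were Cdkn1a with both of its probes, Cdkn2a, an inhibitor locus for p16 and Arf, and the stress-responsive kinase Plk3. The median log2 ratio of the members was 0.04 and that of all probes 0.01. Above 0 were 55 members and below 0 were 30 (all probes 4848 and 3605). No member reached a 2-fold change (0.651% of all probes were called at that size), and none had levels that did not overlap between groups (0.592% of all probes). At an unadjusted p under 0.05, 15 members were higher and 9 lower, where 30.2% of all probes passed (17% higher and 13.2% lower). Called with the same sign in all 12 rats were 2 members, Ccnd1 and Cdkl2 (all probes 5.87%).

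**Figure D1:**
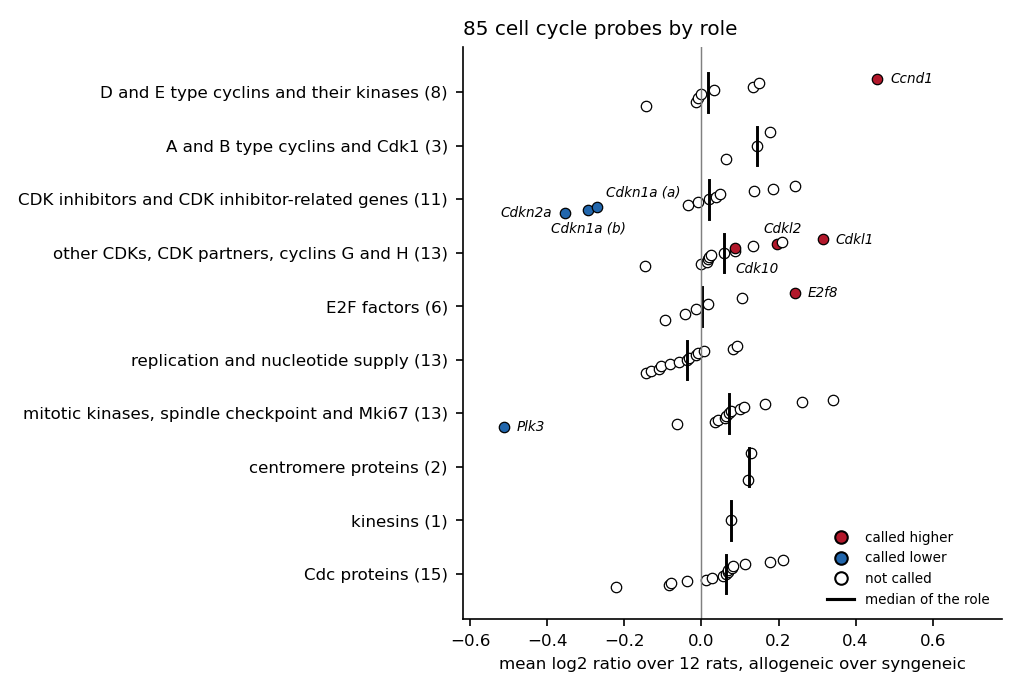
Mean log2 ratio (allogeneic over syngeneic, 12 rats) of each of the 85 member probes, in rows by role with the number of probes in parentheses; filled points were called by limma and black bars are role medians. Called probes lie in 5 of the 10 roles, with Ccnd1 at 0.46 and Plk3 at -0.51 as the ends.

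Without rat 8, the number of called members was 20 (23.5%), of which 9 were higher and 11 lower, while 24.7% of all probes were called (12.5% higher and 12.2% lower). The 20 probes belonged to 19 genes and included all 9 probes called with 12 rats. Without array 1 of rat 10, 11 members were called, 7 higher (all probes 9.76%) and 4 lower (8.88%), where 18.6% of all probes were called. Without both rat 8 and that array 21 were called, 12 higher (all probes 13.6%) and 9 lower (12.8%), where 26.4% of all probes were called. The share of members called was below the share of all probes in each of these 4 settings.

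**Figure D2:**
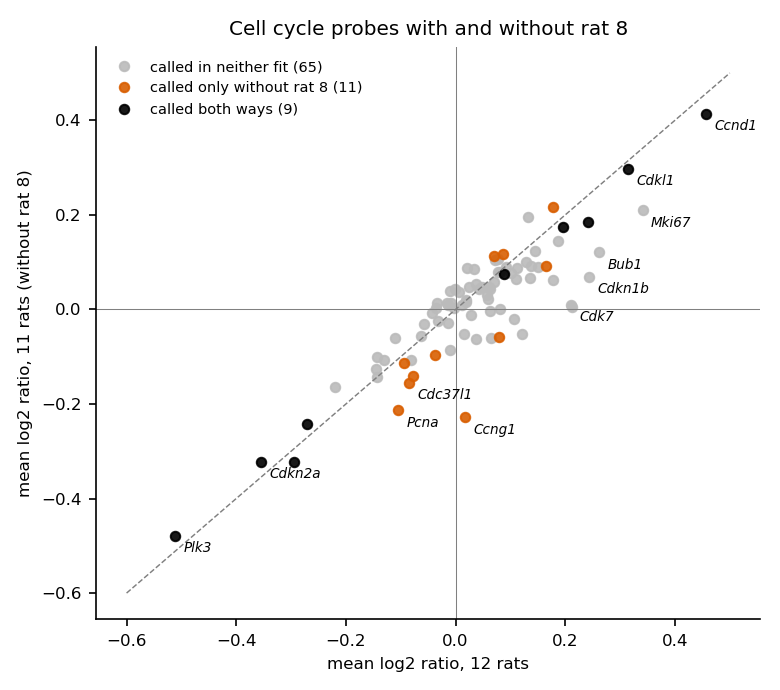
Each point is a member probe, with its mean log2 ratio over 12 rats on the x axis and over the 11 rats other than rat 8 on the y axis; the dashed line marks equal values. The 9 black points were called both ways, the 11 orange ones only without rat 8, and Ccng1 lies at 0.02 on the x axis and -0.23 on the y axis.

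Cyclin D1, which carries growth signals into G1, had the smallest adjusted p of all members. The log2 ratio of Ccnd1 was 0.11 at the lowest, 0.49 at the median and 0.93 at the highest, in rat 8. It was positive in 12 of 12 rats. The mean was 0.46 ± 0.23 (SD, n = 12), or 1.37-fold higher, with an adjusted p of 0.000423 by limma. The mean was 0.41 without rat 8 (adjusted p = 0.000179 by limma). The normalized log2 intensity of the probe was 12.98 to 13.53 in allogeneic and 12.51 to 13.01 in syngeneic explants, so that the groups overlapped at their edges only. The values were also alike in both dye orientations, at 0.47 with the allogeneic sample in Cy5 and 0.44 with it in Cy3. On the 3 slides they were 0.38, 0.52 and 0.47.

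The partners of cyclin D1 gave no call. Ccnd3 had a mean log2 ratio of 0.13 ± 0.32 (SD), with values from -0.55 in rat 8 to 0.60. It was 0.19 without rat 8 (adjusted p = 0.0546 by limma), and 0.23 when array 1 of rat 10 was left out as well (adjusted p = 0.0347 by limma). The kinases Cdk4 and Cdk6, which cyclin D activates, had means of -0.14 ± 0.27 and -0.01 ± 0.13 (SD). Cdk4 was negative in 9 of 12 rats, with an adjusted p of 0.217 by limma. The E type cyclins, which act with Cdk2 at the start of replication, had means of 0.03 and -0.0008 for the 2 Ccne1 probes and 0.15 for Ccne2 (adjusted p = 0.134 by limma). Cdk2 itself had a mean of -0.01 ± 0.10 (SD). In this role 1 of 8 probes was called (12.5%, all probes 17.3%).

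Of the 11 inhibitor probes, for 8 genes, 3 were called (27.3%, all probes 17.3%), all 3 lower (all probes 8.48%). The 3 were both probes of Cdkn1a and the Cdkn2a probe. The same 3 were called lower without rat 8 (all probes 24.7%, of which 12.2% lower). Cdkn1a encodes p21, which stops the cycle after DNA damage. Its first probe, at the lower coordinate, ranged from -0.73 to 0.04 with a median of -0.27, and its second from -0.69 to 0.01 with a median of -0.26. Each was negative in 11 of 12 rats. The means were -0.27 ± 0.22 and -0.29 ± 0.22 (SD), or 1.21- and 1.23-fold lower, with adjusted p-values of 0.00795 and 0.00497 by limma. The exceptional rat was rat 3 for the first probe and rat 8 for the second. Although the means of both probes were close, their values correlated with r = 0.467 over the 12 rats only, as a description of 2 probes on the same arrays. Cdkn2a ranged from -0.76 to 0.19 with a median of -0.32, was negative in 10 of 12 rats, and had a mean of -0.35 ± 0.32 (SD, adjusted p = 0.0131 by limma), or 1.28-fold lower. The positive values were those of rats 7 and 9. Its slide means were -0.44, -0.45 and -0.18. Both p16 and Arf are made from this locus, and which of the transcripts the probe reads was not settled here.

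The other inhibitors varied widely between rats. Cdkn1b (p27) had a mean of 0.24 ± 0.66 (SD, adjusted p = 0.403 by limma), with 2.17 in rat 8 and -0.54 to 0.56 in the others. The mean was 0.07 without rat 8. The normalized log2 intensity of Cdkn1b in rat 8 was 12.80 in the allogeneic and 10.63 in the syngeneic explant. The syngeneic explants of the other rats had 11.88 to 12.82. The 2 probes of Cdkn1c (p57) had means of -0.03 and -0.01, with single rats between -0.55 and 0.51, and they correlated with r = 0.947 over the rats. Cdkn2b (p15) had means of 0.19 and 0.05, Cdkn2c (p18) 0.04, Cdkn2d (p19) 0.02 and Cdkn3, a phosphatase of CDKs, 0.14. None of these was called. Among the 10 genes with 2 member probes, the sign of the mean was the same for 9, with Ccne1 near 0 as the exception.

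**Figure D3:**
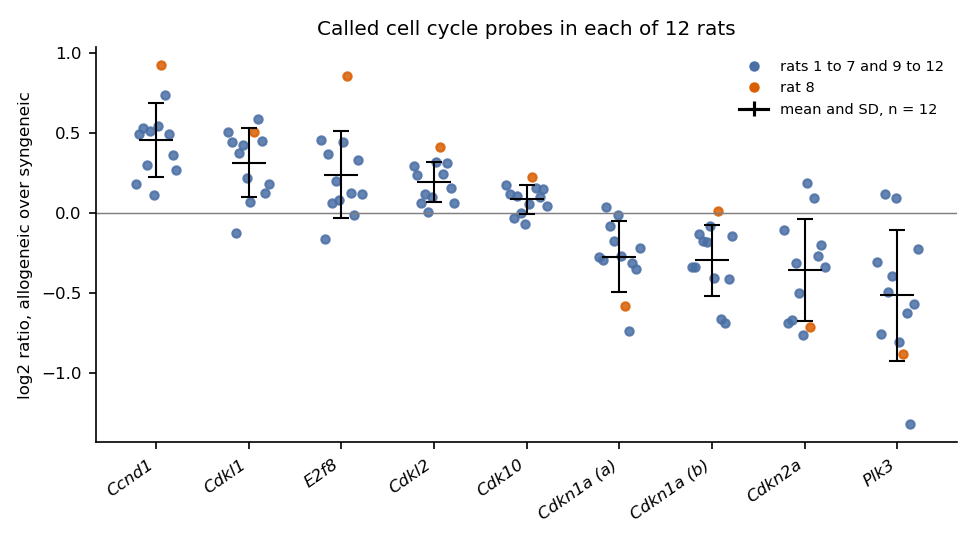
Log2 ratio (allogeneic over syngeneic, y axis) of the 9 called probes in each of 12 rats; points are rats, rat 8 is orange, and bars give mean and SD. Ccnd1 and Cdkl2 are above 0 in all 12 rats and both Cdkn1a probes, a and b in the order of their coordinates, are below 0 in 11.

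Of the other CDKs and CDK partners, 3 of 13 probes were called (23.1%, all probes 17.3%), all higher (all probes 8.78%). Cdkl1 and Cdkl2 are kinases related in sequence to the CDKs. Cdkl1 ranged from -0.12 to 0.59 with a median of 0.40, was positive in 11 of 12 rats and had a mean of 0.32 ± 0.22 (SD, adjusted p = 0.00309 by limma). Cdkl2 ranged from 0.01 to 0.42 with a median of 0.20 and was positive in 12 of 12, with a mean of 0.20 ± 0.13 (SD, adjusted p = 0.00269 by limma). The Cdkl2 probe was well above background on 24 arrays in the allogeneic and on 21 in the syngeneic channel. The call of Cdk10, a kinase of the CDK family, was less secure. Its mean was 0.09 ± 0.09 (SD, adjusted p = 0.0363 by limma), but -0.19 with the allogeneic sample in Cy5 and 0.36 with it in Cy3. It was lost when any 1 of rats 1, 2, 4, 7, 9, 10, 11 and 12 was removed, and the adjusted p by limma then reached up to 0.0782. Of the 9 called probes, 8 had the same sign in both orientations, Cdk10 being the exception, and 9 had it on all 3 slides. Among all members, 49 of 85 had the same sign in both orientations.

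Ccng1 (cyclin G1, an atypical cyclin) was the member most altered by rat 8. With 12 rats the mean was 0.02 ± 0.86 (SD, adjusted p = 0.971 by limma). Rat 8 had a value of 2.72, while the other 11 rats lay between -0.38 and 0.05 with a median of -0.25, negative in 10 of them. Without rat 8 the mean was -0.23 ± 0.13 (SD, n = 11, adjusted p = 0.00103 by limma). Cdk7 and Cdc73 had high values of 2.41 and 2.50 in rat 8 as well, and their means went from 0.21 in both to 0.01 without it. Cdk5, a kinase known from neurons, had a mean of 0.09 with 12 rats and 0.12 without rat 8 (adjusted p = 0.0242 by limma). The kinase Cdk9, which acts in transcription, had a mean of -0.15 ± 0.18 (SD) and lay just outside the threshold (adjusted p = 0.0627 by limma).

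Among the E2F factors, which relay the cyclin signal to replication genes, E2f8 was the one of 6 probes that was called (16.7%, all probes 17.3%). It belongs to the repressing members of the family. Its values ranged from -0.16 to 0.86, in rat 8, with a median of 0.17, and were positive in 10 of 12 rats. The mean was 0.24 ± 0.27 (SD, adjusted p = 0.0401 by limma). The adjusted p was 0.0273 without rat 8 by limma, and the call was lost when any 1 of rats 1, 3, 5, 7, 9, 11 and 12 was removed, and the adjusted p by limma then reached up to 0.0794. The activator E2f1 had means of -0.01 and -0.04. E2f7, the closest relative of E2f8, was well above background on 1 array in each group and so was hardly measured. E2f5 had a mean of 0.11 with 1.50 in rat 8. Its normalized log2 intensity there was 10.58 in the allogeneic and 9.07 in the syngeneic explant, against 10.24 to 11.10 in other syngeneic explants. E2f6 had -0.09 with 12 rats and -0.11 without rat 8 (adjusted p = 0.0339 by limma).

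No replication or nucleotide supply probe was called with 12 rats (all probes 17.3%). A negative mean was found for 10 of 13 (3605 of all 8453 probes), with a median of -0.04. Without rat 8 it was found for 8 of 13 (3824 of all 8453 probes), with a median of -0.03. With 12 rats, 2 of the 13 passed an unadjusted p under 0.05, both lower, where 30.2% of all probes passed (13.2% lower). The subunits of the MCM helicase, which unwinds DNA at replication origins, had negative means with 12 rats for all 8 probes of Mcm2, Mcm3, Mcm5, Mcm6 and Mcm7, none of them called. Without rat 8 the Mcm5 probes were at 0.0020 and 0.0091 and the Mcm2 probes at -0.03 and -0.06. Mcm7 came nearest to the threshold, with a mean of -0.13 ± 0.15 (SD), negative in 10 of 12 rats, and an adjusted p of 0.0544 by limma. The 2 Mcm6 probes had means of -0.14 and -0.08, the 2 Mcm2 probes -0.06 and -0.11, the 2 Mcm5 probes -0.04 and -0.01, and Mcm3 -0.03. Mcm3ap, an Mcm3-associated protein, had 0.08. The sliding clamp Pcna had a mean of -0.11 ± 0.42 (SD, adjusted p = 0.585 by limma), with 1.09 in rat 8 and -0.56 to 0.06 in the others. Its normalized log2 intensity in rat 8 was 12.47 in the allogeneic and 11.39 in the syngeneic explant, against 12.18 to 12.73 in other syngeneic explants. Without rat 8 the mean of Pcna was -0.21 ± 0.19 (SD, n = 11), negative in 10 of 11 rats, with an adjusted p of 0.0127 by limma. Rrm1 and Rrm2, the subunits of ribonucleotide reductase, had means of -0.01 and 0.01, and Tyms, thymidylate synthase, had 0.09.

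The mitotic members had small positive means and no call of their own beyond Plk3. Of the 13 probes of mitotic kinases, checkpoint genes and Mki67, 11 had a positive mean (4848 of all 8453 probes), with a median of 0.07. The proliferation marker Mki67 had the largest, 0.34 ± 0.54 (SD, adjusted p = 0.134 by limma), with a lowest value of -0.41 in rat 6, a median of 0.27 and a highest of 1.79 in rat 8. The mean of Mki67 was 0.21 without rat 8 (adjusted p = 0.0861 by limma). The checkpoint kinase Bub1 showed the same spread, from -0.45 in rat 6 to 1.81 in rat 8, with a mean of 0.26 ± 0.56 (SD). The mean was 0.12 without rat 8. In rat 8 the normalized log2 intensities of Mki67 and Bub1 were 9.52 and 7.615 in the syngeneic and 11.31 and 9.43 in the allogeneic explant. Bub1b had means of 0.10 (adjusted p = 0.0571 by limma) and 0.11 for its 2 probes. Plk1 had 0.07 and 0.08, Aurkb 0.06 and Plk4 0.06, the last of which was -0.0044 without rat 8. Of the A and B type cyclins and Cdk1, Ccna1 had a mean of 0.18, Ccnb1 0.06 and Cdk1 (listed as Cdc2a) 0.14 ± 0.24 (SD, adjusted p = 0.153 by limma). Ccna1 was called without rat 8, at 0.22 (adjusted p = 0.0287 by limma), and so was Aurkc, at 0.09 (adjusted p = 0.0091 by limma). The centromere protein Cenpf had 0.13 and the spindle motor Kif2c 0.08, neither of them called.

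Plk3, which responds to stress and DNA damage, stood out from its family. Its values ranged from -1.32 in rat 10 to 0.12 in rat 3, with a median of -0.53, and were negative in 10 of 12 rats. The mean was -0.51 ± 0.41 (SD, adjusted p = 0.0069 by limma), or 1.43-fold lower, and it was the largest difference in size among the 85 members. It was -0.48 without rat 8 (adjusted p = 0.00863 by limma) and -0.49 without array 1 of rat 10 (adjusted p = 0.00478 by limma). The slide means were -0.36, -0.49 and -0.68, and the orientation means -0.69 and -0.33. Its relative Plk2 had a mean of 0.04 ± 0.41 (SD), with 1.13 in rat 8.

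**Figure D4:**
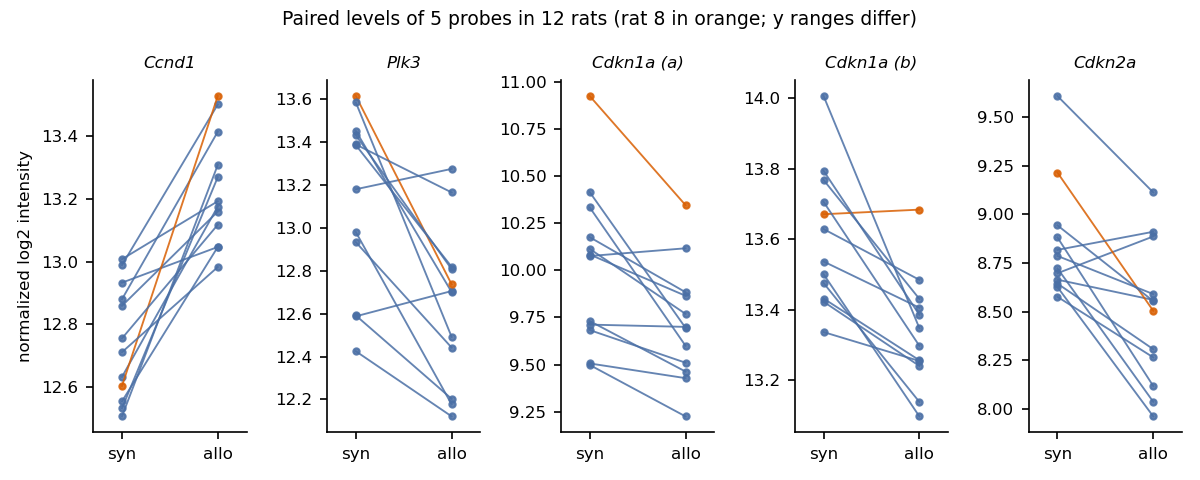
Normalized log2 intensity (y axis, range set for each panel) of 5 called probes in the syngeneic and allogeneic explant of each rat, joined by a line; rat 8 is orange, and rat 10 is drawn from its other array only. The Ccnd1 lines all go up from 12.51 to 13.01 towards 12.98 to 13.53, and most lines of Plk3, Cdkn1a and Cdkn2a go down.

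Replication and mitotic members were also compared rat by rat. The median of the 19 mitotic probes (mitotic kinases, A and B cyclins, centromere and kinesin genes) ranged from -0.22 in rat 6 to 0.36 in rat 7. The median of the 13 replication probes ranged from -0.26 in rat 6 to 0.17 in rat 9. Rats 4, 7, 9 and 10 were above 0 in both, and rats 2, 5, 6 and 12 below 0 in both. Over the 12 rats the medians correlated with Pearson's r = 0.576 (permutation p = 0.051) and Spearman's rho = 0.49 (permutation p = 0.111), two-sided, as the single relation of this kind computed. Without rat 8 the values were 0.76 (permutation p = 0.00652) and 0.655 (permutation p = 0.0332). Without rats 6 and 7, which were farthest from the median, and with rat 8 kept, r was 0.251 (permutation p = 0.488). The relation therefore depended on which rats were kept. Both medians of a rat came from the same 2 arrays, so an error shared within an array can enter both. The permutation p does not account for this. Each slide held 4 rats, too few for a value within a slide.

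**Figure D5:**
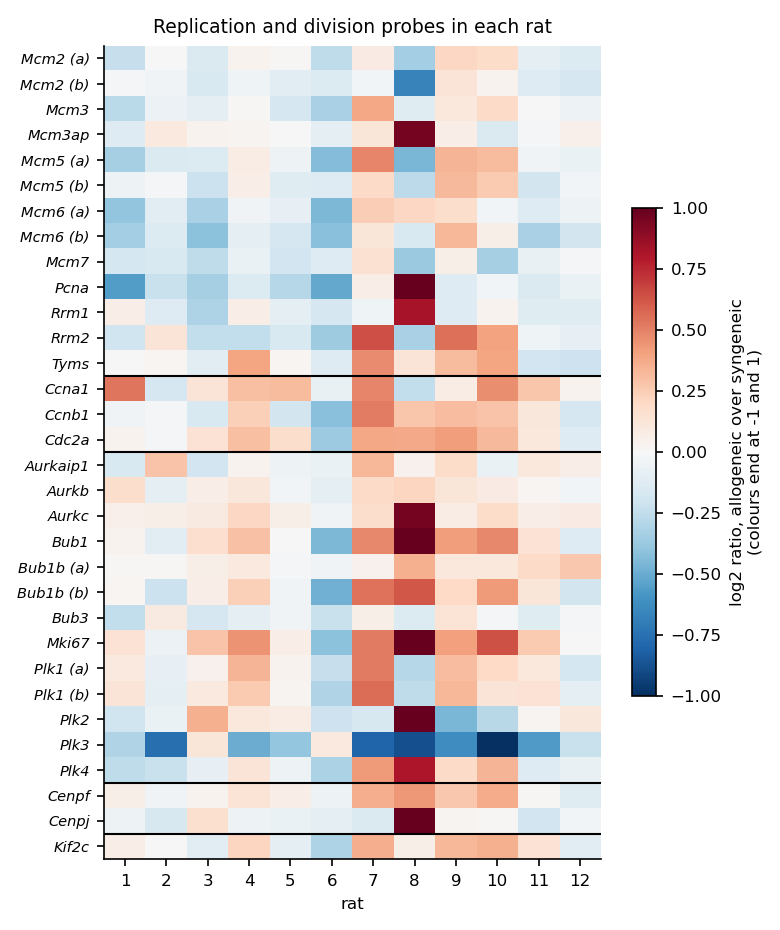
Log2 ratio (allogeneic over syngeneic, colour, ends at -1 and 1) of the replication and mitotic members, 1 row per probe and 1 column per rat, with lines between roles; a and b are probes of 1 gene in the order of their identifiers. Rat 7 is mostly above 0, rat 6 mostly below, and rat 8 holds the strongest colours in both directions.

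None of the 15 Cdc probes was called with 12 rats (all probes 17.3%). Many of the Cdc names are historical and cover different functions, such as the ubiquitin ligase component Cdc27, the phosphatases Cdc25a and Cdc25c, and the GTPase Cdc42. Cdc34, a ubiquitin-conjugating enzyme, had the largest mean in size on the negative side, -0.22 ± 0.32 (SD, adjusted p = 0.102 by limma). Cdc42bpa, a kinase bound by Cdc42, was the first member outside the threshold, with a mean of 0.07 (adjusted p = 0.0504 by limma), next to Cdk10 and E2f8 inside it. Without rat 8, 5 of the 15 were called (33.3%, all probes 24.7%). Cdc37l1 was lower by 0.15 on the log2 scale and in 11 of 11 rats (adjusted p = 0.0014 by limma), Cdc37, a chaperone partner of kinases, was higher at 0.11, Cdc27 lower at -0.10, Cdc25a lower at -0.14 and Cdc5l, a splicing factor, lower at -0.06.

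The members were set beside lists of genes of the same pathways, in which non-members were included. Of the 34 G2/M probes found, 29 had a positive mean (4848 of all 8453 probes), and the list median was 0.07 (all probes 0.01). None of the list was called by limma with 12 rats (all probes 17.3%) or without rat 8 (all probes 24.7%). At an unadjusted p under 0.05, 5 of the list passed, all higher, where 30.2% of all probes passed (17% higher). Among the non-members of the list were the spindle checkpoint kinase Ttk at 0.27 ± 0.56 (SD) and Aurka, listed as Stk6, at -0.15 ± 0.27 (SD). Without rat 8 they were at 0.14 and -0.09. Of 41 S phase probes, 4 were called (9.76%, all probes 17.3%), of which 1 was higher, E2f8, and 3 lower. The 3 were the uracil-DNA glycosylase Ung at -0.28 (adjusted p = 0.00101 by limma), negative in 12 of 12 rats, the flap endonuclease Fen1 at -0.19 and the clamp loader subunit Rfc2 at -0.10. These 3 were the calls among the 23 non-member probes of the list (13%). The list median was -0.01. Without rat 8, 2 of the 41 were higher and 7 lower (22%, all probes 24.7%).

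Of 25 probes of growth arrest and damage response genes, 5 were called with 12 rats (20%, all probes 17.3%), of which 4, the Cdkn1a, Plk3 and Cdkn2a probes, are members and lower. The fifth was the junction protein gene Perp, higher at 0.69 ± 0.74 (SD, adjusted p = 0.0317 by limma), positive in 11 of 12 rats. It was the 1 call among the 12 non-member probes of the list (8.33%). Without rat 8, 9 were called (36%, all probes 24.7%), 1 higher and 8 lower. The additional ones were Ccng1, Gadd45a, a growth arrest gene, at -0.48 (adjusted p = 0.000872 by limma), Wig1 (now Zmat3) at -0.23 and Btg1, an antiproliferative gene, at -0.18. The list median was 0.02 with 12 rats and -0.0045 without rat 8, and the list held genes of both signs. Of 30 probes of G1 and growth signal genes, 4 were called (13.3%, all probes 17.3%), 3 of them among the 24 non-member probes (12.5%). Higher were 3 of the 4 (Ccnd1, the immediate early factor Egr1 at 0.49 and Id3 at 0.23), and 1, the AP-1 component Jund, was lower at -0.36. Egr1 was positive in 12 of 12 rats and Jund negative in 12 of 12. Without rat 8, 3 were higher and 5 lower (26.7%, all probes 24.7%), the 5 being Jund, Chek1, Wee1, Myc and the member Cdc25a. The called Wee1 probe was at -0.09, and the other Wee1 probe was at 0.03 (adjusted p = 0.602 by limma).

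Markers of other cell types differed between the groups as well. For comparison, 8.78% of all probes were called higher and 8.48% lower. Of 13 macrophage probes, 9 were lower in allogeneic explants and none higher, with a median log2 ratio of -0.60 and a summed level of 25970 to 50810 in allogeneic against 37850 to 109500 in syngeneic explants, in intensity units. Of 16 T cell probes 5 were lower (summed level 4177 to 6405 against 4789 to 8655), and of 9 natural killer cell probes 4 were lower (1822 to 2449 against 1932 to 3227). None of 5 B cell probes was called. Endothelial probes were higher for 4 of 9 (22540 to 35300 against 21780 to 28800), and fibroblast probes were higher for 2 and lower for 1 of 6 (42740 to 69780 against 38400 to 70800). Of 5 melanocyte and nerve probes 1 was higher, and neither of 2 skeletal muscle probes was called. Every probe of these lists was well above background on at least 1 array. The part of these cells in the member results was not tested.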

How the data were processed

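RNA of paired skin explants of 12 BN rats had been hybridized to 24 two-color Agilent arrays of 15744 spots, of which 536 were controls. The spot intensities were deposited as written by Feature Extraction (9.5.1.1 per the file headers), and the mean signals were used here. The deposited series table holds log2 ratios made by the authors, and it was used as an alternative only. All 24 of its columns correlated positively (0.707 to 0.955) with the allogeneic over syngeneic ratio of the scanner's processed signals, with column medians of -0.0272 to 0.0218. They were taken as already turned and on a log2 scale, and their background treatment is unknown.

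Background was corrected with normexp (offset 50) and each array was normalized by loess, with weight 0 for controls and outlier spots, in limma 3.58.1 (R 4.3.3). Saturated spots were kept, outlier spots were not. After the sign of dye-swapped arrays had been reversed, replicate spots were averaged, and then both arrays of each rat, as technical repeats of the same RNA. Ratios were tested against 0 over the 12 rats with limma (two-sided, Benjamini-Hochberg over 8453 probes), and called at an adjusted p under 0.05. Among arrays of one dye orientation the lowest correlation was 0.006. Levels are normalized log2 intensities, without array 1 of rat 10. The number of arrays limits the precision. On simulated data with 200 changed probes, this fit recovered 65% of log2 changes of 0.25 and 87% of those of 0.5. Of its calls there, 6.75% were false. The simulated noise was independent between probes, with the SD of each probe, and no simulated rat or array stood apart. In the real data 1459 probes were called, so these shares need not hold for them.

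Members and lists were chosen with earlier results of these data known. Named were all called members, the 5 uncalled ones of largest size, a fixed set of well-known cycle genes, those nearest the threshold, and those called without rat 8. Further members with values were chosen after these were seen. Alternatives covered background, normalization, dye orientation, dim probes, outliers, slide, test, series table, gene level, arrays as replicates and each rat.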

Additional observations from a re-analysis of the deposited data

How the results depend on the processing

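With 12 rats, 9 member probes of 8 genes in 5 roles and 13 list probes were called. Plk3, Cdkl1, Ccnd1, Cdkl2, Cdkn2a and both Cdkn1a probes kept their call and direction in 12 of 12 other settings and without each of the 12 rats. E2f8 lost its call in 3 settings and Cdk10 in 5. Those of E2f8 were median centring, arrays with the allogeneic sample in Cy3, and an ordinary t-test of the 12 rat means against 0. The highest adjusted p of E2f8 was 0.268 by limma or that t-test. Arrays with the allogeneic sample in Cy5 alone gave 28 member probes, 26 genes, 8 roles and 41 list probes, and those with it in Cy3 alone 17, 16, 9 and 29. By construction a dye effect does not cancel in either. In Cy5 alone Cdk10 turned to -0.186 and Ccne1 to 0.217, and in Cy3 alone Mcm5 turned to 0.236; the cause was not tested. Every array held both samples of a rat, so the main test is already paired. With all 24 arrays and the rat as a random replicate block (correlation 0.252) the counts were 14, 13, 8 and 21. Leaving out each rat gave 7 to 20 probes, 6 to 19 genes, 4 to 8 roles and 9 to 26 list probes, the highest without rat 8, and Ccng1 ranged from -0.229 to 0.054. Without rat 8 and array 1 of rat 10, a setting chosen after seeing the data, the counts were 21, 20, 8 and 28, and Ccng1 was -0.23. The other settings stayed within 1.5 times the main counts. At gene level no probe count exists.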
